A study of Homo sapiens and Mus musculus with 29 samples.

Results

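Latrophilins (ADGRL1, ADGRL2 and ADGRL3), fibronectin leucine-rich transmembrane proteins (FLRT1, FLRT2 and FLRT3), teneurins (TENM2, TENM3 and TENM4) and the receptor UNC5B form a network of cell adhesion proteins. These 10 genes, of 58719 in the table, were read by symbol in human pancreatic tumors grown in mice. The set was selected on the measured RPKM of ADGRL3 and FLRT3, which were high in the tumors labeled HNF4G-KO and low again when FOXA1 was overexpressed as well. The levels of the members in the 4 groups of primary tumors, and the differences drawn from HNF4G-KO tumors against control and against HNF4G-KO+FOXA1-OE tumors, are therefore given as a description, with no p-value. For the members, tests are given for the effect of FOXA1 without the knockout, for the 2 FOXA1-OE groups against each other and for the metastases. Of these, the comparison between metastases uses no primary tumor, while the others share control, HNF4G-KO or HNF4G-KO+FOXA1-OE tumors with the choice. Even so, it is not independent, since the metastases carried the same knockout cells and 4 mice gave both a tumor and a metastasis.

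HPAF-II, an established human pancreatic adenocarcinoma cell line, was grown orthotopically, by injection into the mouse pancreas. The hosts were NSG mice, which lack a working adaptive immune system, and tissue was taken at the humane endpoint. The control and FOXA1-OE groups were labeled Cas9. In the methods of the study the knockout was made by electroporating Cas9 protein with guide RNA. The control tumors (n = 3 mice) carried an empty vector (EV), and the FOXA1-OE tumors (n = 3 mice) a FOXA1 lentivirus. The HNF4G-KO tumors (n = 4 mice) came from a pool of 3 single-cell clones with frameshift mutations in HNF4G, with EV. The HNF4G-KO+FOXA1-OE tumors (n = 5 samples from 4 mice) carried the knockout and the FOXA1 lentivirus, and their tumors 2 and 3 shared a mouse. Metastases were sampled from the knockout without added FOXA1 (n = 2, peritoneal) and with it (n = 4 from 3 mice). Of these 4, metastasis 1 was from the spleen and metastasis 2 from peritoneal fat of the same mouse, metastasis 3 was from peritoneal fat and metastasis 4 was peritoneal. The labels give no age, and the methods of the study describe young adult mice. An effect of the clone pool cannot be told apart from an effect of the knockout, since every HNF4G-KO sample came from that pool.

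Expression was in RPKM, reads divided by gene length and by library depth. The depth of the 21 libraries, recovered from the steps of the RPKM values, was 33.1 M to 69.6 M reads with a median of 54.5 M. The smallest step was taken as 1 read. Even counts made up 56.0% to 61.5% of low values, and with a step of 2 the depth would be 16.6 M to 34.8 M, median 27.3 M. FOXA1 was 0.519 to 0.932 RPKM in control tumors and 1.26 to 1.87 RPKM in HNF4G-KO tumors. It was above all of these in 5 of 5 HNF4G-KO+FOXA1-OE tumors and in 2 of 3 FOXA1-OE tumors, but FOXA1-OE tumor 3 had 0.763 RPKM. Of the 4 metastases labeled HNF4G-KO+FOXA1-OE, 1 was above them (metastasis 2, 17.9 RPKM), and metastases 1, 3 and 4 had 0.535, 1.30 and 1.55 RPKM. The HNF4G-KO metastases had 0.362 and 0.602 RPKM, below HNF4G-KO+FOXA1-OE metastases 2, 3 and 4. HNF4G mRNA was 2.48 to 3.47 RPKM in control tumors and 5.72 to 8.42 RPKM in tumors labeled HNF4G-KO. A frameshift need not lower the mRNA, so this level did not check the knockout, and group names below are those of the labels. All 5 epithelial markers were at 1 RPKM or more in every library. Values of 9 human stromal genes, listed as markers of host stroma, were summed. The sum was 52.8 to 192 RPKM in control tumors, 49.1 to 69.5 RPKM in HNF4G-KO tumors and 74.0 to 390 RPKM in HNF4G-KO metastases. Removal of mouse reads was not given, so the species of the reads behind these values was not known. Only 5 or 6 of the 9 reached 1 RPKM in a library. COL6A3, DCN, LUM and PDGFRB had medians of 0.112, 0.0771, 0.460 and 0.507 RPKM, so the sum rests mainly on the other genes. None of 5 endothelial markers reached 1 RPKM in any library. The sum of 6 markers of normal pancreas was 360 RPKM in control tumor 2, against 9.82 and 4.17 RPKM in the other control tumors and 1.29 to 8.50 RPKM in HNF4G-KO tumors. The part of normal pancreas in the control values was not tested, and values without control tumor 2 are given with the results below.

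Latrophilins are adhesion G protein-coupled receptors that sit on 1 cell and bind FLRTs and teneurins on its neighbor. They are best known for guiding synapse formation and cell migration, and signal through G proteins after contact. FLRTs also bind UNC5 receptors, where contact is repulsive, and fibroblast growth factor receptors. UNC5B is in addition a receptor for netrins, secreted guidance cues that also act on blood vessels and epithelia.

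ADGRL3 lies on chromosome 4 (chr4:61200326-62078335, plus strand) and FLRT3 on chromosome 20 (chr20:14322985-14337614, minus strand) in GRCh38 with the GENCODE annotation. The 250 bases before a RefSeq start of each are shown because this pair carried the pattern and because their promoters differ in CpG content. Capitals mark CpG dinucleotides, read 5′ to 3′ on the strand of the gene in GRCh38.p14, at chr4:61200076-61200325 for ADGRL3 and chr20:14337613-14337862 for FLRT3.
ADGRL3: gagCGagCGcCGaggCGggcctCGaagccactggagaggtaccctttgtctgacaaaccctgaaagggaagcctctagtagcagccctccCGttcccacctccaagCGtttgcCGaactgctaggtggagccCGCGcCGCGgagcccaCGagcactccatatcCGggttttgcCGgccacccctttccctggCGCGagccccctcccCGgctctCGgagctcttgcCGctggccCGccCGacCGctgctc
FLRT3: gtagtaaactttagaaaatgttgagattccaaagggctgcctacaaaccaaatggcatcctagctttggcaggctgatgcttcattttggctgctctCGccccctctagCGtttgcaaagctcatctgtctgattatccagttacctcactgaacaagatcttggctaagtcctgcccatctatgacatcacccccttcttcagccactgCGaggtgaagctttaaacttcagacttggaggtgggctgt

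The ADGRL3 promoter shown held 23 CpG and was 68% GC, whereas the FLRT3 promoter held 3 CpG and was 47.6% GC. Another ADGRL3 promoter (chr4:61201922-61202171), not shown, held 16 CpG and was 63.2% GC. Over 35116 promoters of the same length the medians were 11 CpG and 58% GC. The forkhead core TGTTTAC, searched on both strands, was in none of these promoters and in 2.98% of all promoters. Among the 21 promoters of 8 members in the table, it was in 1 promoter of TENM3 (chr4:182448766-182449015) and in 1 of FLRT2 (chr14:85533099-85533348). The HNF4 motif core CAAAGTCCA was in none of the 21 and in 0.325% of all promoters. These letters say nothing of binding. ADGRL1 and UNC5B had no entry.

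Only 4 members, ADGRL1, ADGRL3, FLRT3 and UNC5B, reached a mean of 1 RPKM, the minimum for a test across all genes. The other 6 members stayed below it, and none was called in the 5 tested comparisons when the minimum was dropped.

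ADGRL3, the latrophilin expressed at 1.01 ± 0.149 RPKM (SD, n = 3) in control tumors, was highest in HNF4G-KO tumors among the primary tumors. It was 1.18, 0.891 and 0.968 RPKM in the control tumors. The FOXA1-OE tumors had 1.74, 1.88 and 1.64 RPKM, above every control tumor. The HNF4G-KO tumors had 3.08, 3.63, 3.80 and 3.23 RPKM, above every other primary tumor. In HNF4G-KO+FOXA1-OE tumors ADGRL3 was 0.495, 1.87, 0.610, 1.501 and 1.10 RPKM, a range that held the control values. Mean ADGRL3 in HNF4G-KO tumors was 3.39-fold that of control tumors and 3.17-fold that of HNF4G-KO+FOXA1-OE tumors, whereas HNF4G-KO+FOXA1-OE tumors were at 1.07-fold control. In bulk tissue, fewer cells that express a gene and less RNA per cell cannot be told apart. The sum of stromal genes was 192, 183 and 52.8 RPKM in control tumors 1, 2 and 3 and 49.1 to 69.5 RPKM in HNF4G-KO tumors. Only control tumor 3 lay within the HNF4G-KO range, and the part of stroma in these levels was not tested.

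FLRT3, a membrane ligand of ADGRL3, was likewise highest in HNF4G-KO tumors, at a higher level. It was 9.51, 7.57 and 8.36 RPKM in control tumors and 13.1, 10.2 and 8.15 RPKM in FOXA1-OE tumors, which overlapped. The HNF4G-KO tumors had 15.9, 24.0, 25.1 and 16.5 RPKM, with no overlap with any other group of primary tumors. The HNF4G-KO+FOXA1-OE tumors had 8.62, 13.5, 4.57, 9.36 and 6.31 RPKM and spanned the control range. The mean in HNF4G-KO tumors was 2.40-fold control and 2.44-fold HNF4G-KO+FOXA1-OE, and the latter was 0.983-fold control. FLRT3 lies within an intron of MACROD2 on the opposite strand, with no exon in common, and MACROD2 averaged 0.127 RPKM. ADGRL3-AS1, which overlaps ADGRL3 exons antisense, averaged 0.00588 RPKM.

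**Figure D1:**
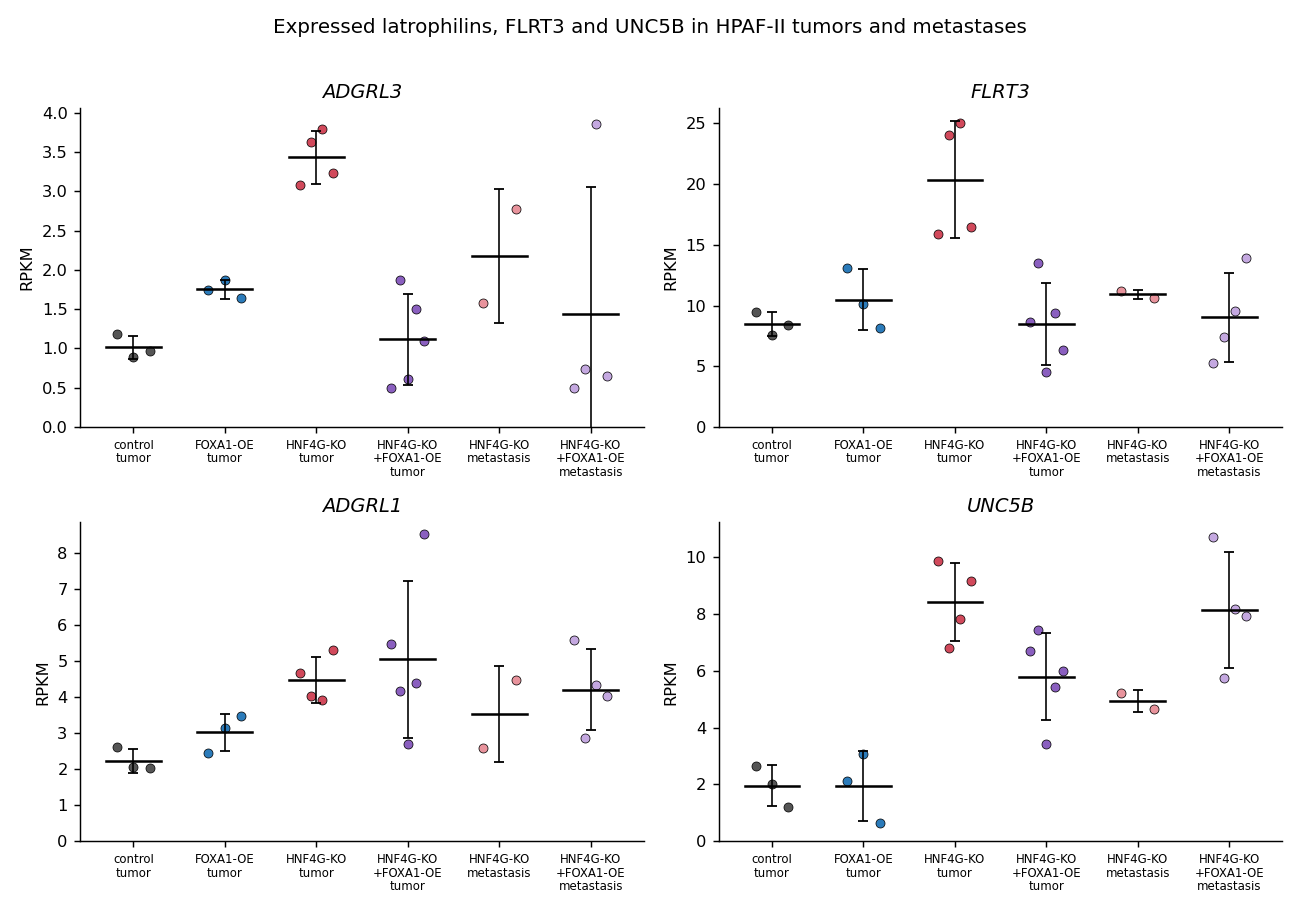
RPKM of ADGRL3, FLRT3, ADGRL1 and UNC5B (vertical axes) in each tumor and metastasis of the 6 groups, with points for samples and bars for the mean and SD. The HNF4G-KO tumors sit at 3.08 to 3.80 RPKM for ADGRL3, above all other primary tumors, whereas UNC5B stays above the control range in HNF4G-KO+FOXA1-OE tumors.

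ADGRL1, the second latrophilin above the minimum, differed from ADGRL3 in the HNF4G-KO+FOXA1-OE tumors. It was 2.61, 2.06 and 2.02 RPKM in control tumors and 2.45, 3.15 and 3.47 RPKM in FOXA1-OE tumors. HNF4G-KO tumors had 4.67, 4.03, 3.94 and 5.30 RPKM, all above both of those groups. HNF4G-KO+FOXA1-OE tumors had 5.47, 4.17, 2.71, 4.39 and 8.53 RPKM, which overlapped with HNF4G-KO tumors and spread most widely, with an SD of 2.18 RPKM. The means were 2.01-fold control in HNF4G-KO tumors and 2.45-fold control in HNF4G-KO+FOXA1-OE tumors. The antisense ADGRL1-AS1, which shares exon positions with ADGRL1, averaged 0.518 RPKM, and the use of strand in the counting was not given.

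UNC5B, the netrin and FLRT receptor, was the member with the largest ratio between HNF4G-KO and control tumors among the 4 above the minimum. It was 2.66, 2.00 and 1.21 RPKM in control tumors, and 2.11, 3.06 and 0.622 RPKM in FOXA1-OE tumors. HNF4G-KO tumors had 9.89, 6.80, 7.84 and 9.17 RPKM, a mean 4.31-fold control. HNF4G-KO+FOXA1-OE tumors had 6.70, 7.46, 3.41, 5.44 and 5.98 RPKM, a mean 3.01-fold control. These overlapped with the HNF4G-KO tumors but lay above every tumor without the knockout. In HNF4G-KO+FOXA1-OE tumors UNC5B and ADGRL1 thus lay above every control tumor, while ADGRL3 and FLRT3 spanned the control values. The antisense UNC5B-AS1, which overlaps UNC5B with no exon in common, averaged 5.55 RPKM.

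Without control tumor 2 the log2(RPKM + 1) difference between HNF4G-KO and control tumors was 1.10 for ADGRL3, 1.08 for FLRT3, 1.72 for UNC5B and 0.72 for ADGRL1, beside 1.14, 1.15, 1.69 and 0.76 with it. In the fit across 14269 genes, all 4 members above the minimum were called higher in HNF4G-KO than in control tumors, beside 12.2% of all genes called, 6.18% higher and 5.99% lower. The call of ADGRL1 held in 4 of 15 alternative settings. ADGRL3 and FLRT3 were called lower in HNF4G-KO+FOXA1-OE than in HNF4G-KO tumors, beside 0.0561% of genes. ADGRL1 and UNC5B were called higher in HNF4G-KO+FOXA1-OE than in control tumors, beside 4.7% of genes, 2.14% higher and 2.55% lower. For the difference between the FOXA1 effect with and without the knockout, ADGRL3 was called, beside 0.035% of genes. The set was chosen on these contrasts, which fixes such counts, so they are printed for completeness and nothing is read from them.

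FOXA1 was overexpressed without the knockout in the FOXA1-OE tumors, and 0 of 4 members passed the test against control, beside 0% of all genes called. FOXA1 itself was not called either, at a log2(RPKM + 1) difference of 1.53 (SE 0.48, limma adjusted p = 0.84). The lack of calls therefore cannot show that the members were unchanged. In the limma fit 652 genes had an unadjusted p under 0.05, none of which passed the adjusted threshold, and limma-voom on recovered reads called 0 genes as well. The log2 difference of ADGRL3, on the log2(RPKM + 1) scale used for all differences below, was 0.45 (SE 0.17, 95% CI 0.08 to 0.82), with an adjusted p of 0.84 in limma. It was higher in 3 of 3 tumors than in any control, the mean being 1.73-fold control, and FOXA1-OE tumor 3, which had a control level of FOXA1, was among them. The control tumors had entered the choice of ADGRL3 as its low group, so this comparison is not independent of it, and without control tumor 2 the difference was 0.41. FLRT3 differed by 0.26 (SE 0.22, limma adjusted p = 0.84) and ADGRL1 by 0.31 (SE 0.23, limma adjusted p = 0.84). UNC5B differed by -0.08 (SE 0.28, 95% CI -0.69 to 0.53, limma adjusted p = 0.948).

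Comparing HNF4G-KO+FOXA1-OE with FOXA1-OE tumors asks what the knockout does when both carry the FOXA1 lentivirus. The tumors with the knockout had entered the choice for low ADGRL3 and FLRT3. UNC5B was higher with the knockout, and it was the member called, beside 7.86% of all genes. Its log2 difference was 1.31 (SE 0.26, 95% CI 0.74 to 1.88, limma adjusted p = 0.00918), a 3.05-fold ratio of means, and all 5 tumors lay above all 3 FOXA1-OE tumors. The call was lost when only these 2 groups were fitted (limma adjusted p = 0.106). ADGRL1 differed by 0.63 (SE 0.22, 95% CI 0.16 to 1.10) and did not pass (limma adjusted p = 0.0971). ADGRL3 was lower by -0.44 (SE 0.16, 95% CI -0.79 to -0.09, limma adjusted p = 0.114), and FLRT3 by -0.33 (SE 0.20, 95% CI -0.76 to 0.11, limma adjusted p = 0.351). FOXA1 itself was at the control level in FOXA1-OE tumor 3, and without that tumor the UNC5B difference was 0.93 (limma adjusted p = 0.0187).

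**Figure D2:**
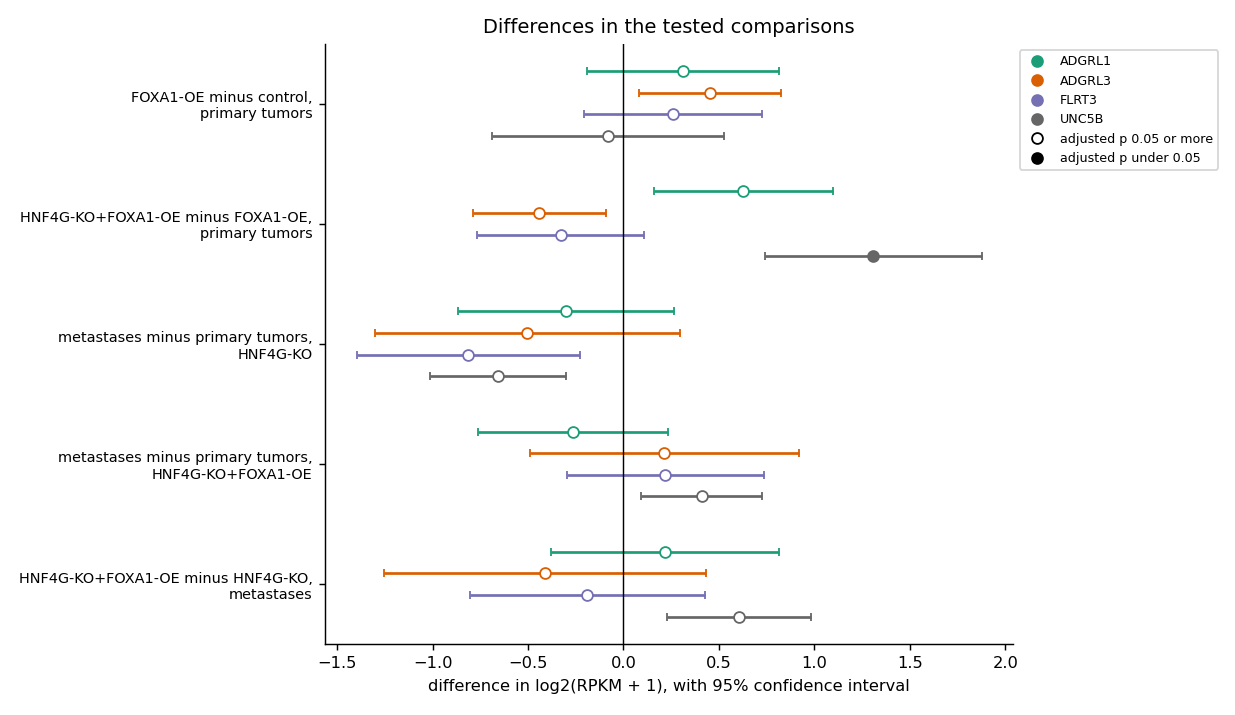
Log2 differences on the log2(RPKM + 1) scale (horizontal axis) with 95% confidence intervals for the 4 members above 1 RPKM in the 5 comparisons with a test. Open symbols mark an adjusted p of 0.05 or more. UNC5B in HNF4G-KO+FOXA1-OE against FOXA1-OE tumors, at 1.31, is the filled symbol.

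The metastases gave the members in samples other than the primary tumors of the pattern. They came from mice injected with knockout cells, and 4 of these mice also gave a primary tumor. ADGRL3 was 1.58 and 2.78 RPKM in the HNF4G-KO metastases, both below all 4 HNF4G-KO tumors. It was 0.495, 0.737, 3.85 and 0.655 RPKM in the HNF4G-KO+FOXA1-OE metastases. Of these, metastasis 3 was the highest of all libraries, above every HNF4G-KO tumor and both HNF4G-KO metastases. The rest lay below both HNF4G-KO metastases. The log2 difference between the 2 groups of metastases was -0.41 (SE 0.39, 95% CI -1.25 to 0.43, limma adjusted p = 0.874). An exact two-sided permutation test over 3 and 2 mice gave p = 0.6, the smallest p it allows being 0.2. Without metastasis 3 the difference was -0.93 (limma adjusted p = 0.936), and with each mouse left out in turn it ran from -0.93 to -0.13. FOXA1 was 0.535, 17.9, 1.30 and 1.55 RPKM in HNF4G-KO+FOXA1-OE metastases 1, 2, 3 and 4, and its part in the ADGRL3 levels was not tested.

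FLRT3 was 11.2 and 10.7 RPKM in the HNF4G-KO metastases, below all 4 HNF4G-KO tumors. The HNF4G-KO+FOXA1-OE metastases had 5.30, 7.41, 9.56 and 13.9 RPKM and spanned the HNF4G-KO metastases. The difference between them was -0.19 (SE 0.29, 95% CI -0.81 to 0.43, limma adjusted p = 0.925, exact permutation p = 0.8), and it became 0.07 without the mouse of metastases 1 and 2. The order of the primary tumors was thus not resolved in metastases for either gene with these numbers of mice. None of 14099 genes was called between the metastases (0% called), and 963 had an unadjusted p under 0.05 in limma. FOXA1 itself differed by 1.10 (SE 0.38, limma adjusted p = 0.718). Without the minimum on RPKM, 8 genes were called, no member among them, and limma-voom called 0.

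UNC5B was 5.21 and 4.66 RPKM in HNF4G-KO metastases and 10.7, 5.75, 8.19 and 7.94 RPKM in HNF4G-KO+FOXA1-OE metastases, with no overlap. Its difference was 0.60 (SE 0.17, 95% CI 0.23 to 0.98), with a limma adjusted p of 0.718 and an exact permutation p of 0.2, the smallest possible. In the primary tumors UNC5B had the opposite order, with HNF4G-KO tumors at 8.43 ± 1.38 RPKM (SD, n = 4) and HNF4G-KO+FOXA1-OE tumors at 5.80 ± 1.54 RPKM (SD, n = 5), which overlapped. Whether the order differed between tumors and metastases was not tested. ADGRL1 was 2.58 and 4.46 RPKM in HNF4G-KO metastases and 5.60, 2.87, 4.35 and 4.03 RPKM in HNF4G-KO+FOXA1-OE metastases, which overlapped. Its difference was 0.22 (SE 0.28, limma adjusted p = 0.909, exact permutation p = 0.8).

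Metastases were also set against the primary tumors of the same genotype. The tumors on the other side of these comparisons had entered the choice of the genes, for high levels of ADGRL3 and FLRT3 with the knockout and low levels once FOXA1 was added, so the comparisons are not independent of it for these genes. In HNF4G-KO mice no member was called, beside 0.0426% of genes. FLRT3 differed by -0.81 (SE 0.27, 95% CI -1.40 to -0.23, limma adjusted p = 0.268), the metastases being at 0.537-fold the tumors. UNC5B differed by -0.66 (SE 0.17, 95% CI -1.01 to -0.30, limma adjusted p = 0.204) and was at 0.586-fold. ADGRL3 differed by -0.50 (SE 0.37, limma adjusted p = 0.565) and was at 0.634-fold. ADGRL1 differed by -0.30 (SE 0.26, limma adjusted p = 0.627). FLRT3, UNC5B and ADGRL3 lay below every tumor in both metastases. HNF4G-KO metastasis 2 had the highest sum of stromal genes of all libraries, 390 RPKM, and its part in these values was not tested.

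In HNF4G-KO+FOXA1-OE mice no member was called, beside 0.00709% of genes. UNC5B was higher in metastases by 0.41 (SE 0.15, 95% CI 0.09 to 0.73, limma adjusted p = 0.475), at 1.38-fold. The differences of ADGRL3 and FLRT3 were 0.21 (SE 0.33, limma adjusted p = 0.804) and 0.22 (SE 0.24, limma adjusted p = 0.725). Without metastasis 3 the ADGRL3 difference was -0.31. ADGRL1 differed by -0.26 (SE 0.23, limma adjusted p = 0.657). In limma, 1896 genes had an unadjusted p under 0.05 in HNF4G-KO mice and 1356 in HNF4G-KO+FOXA1-OE mice.

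**Figure D3:**
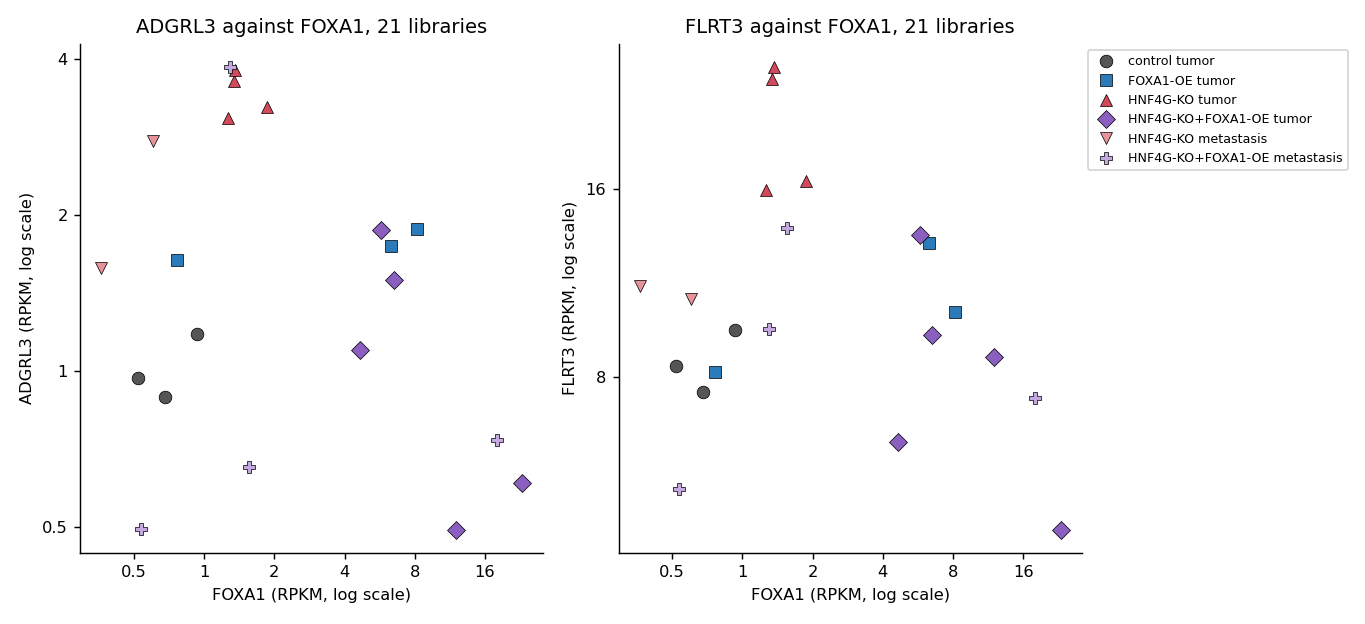
RPKM of ADGRL3 and FLRT3 (vertical axes, log scale) against RPKM of FOXA1 (horizontal axis, log scale) in the 21 libraries, colored by group. The HNF4G-KO tumors, at 1.26 to 1.87 RPKM of FOXA1, hold the highest FLRT3. HNF4G-KO+FOXA1-OE metastasis 3 holds the highest ADGRL3 of all 21 libraries at 1.30 RPKM of FOXA1.

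Of the low members, FLRT2, a ligand of latrophilins and UNC5 receptors, differed most between the groups. It was 0.0141, 0.0196 and 0.00813 RPKM in control tumors and 0.0137, 0.0129 and 0.0174 RPKM in FOXA1-OE tumors. HNF4G-KO tumors had 0.0569, 0.212, 0.142 and 0.124 RPKM, a mean 9.59-fold control. HNF4G-KO+FOXA1-OE tumors had 0.0578, 0.813, 0.305, 0.140 and 0.101 RPKM, a mean 15.4-fold control. Every tumor with the knockout lay above every tumor without it, including the HNF4G-KO+FOXA1-OE tumors. Reads per library ran from 14 to 1803. The HNF4G-KO metastases had 0.01995 and 0.0406 RPKM and the HNF4G-KO+FOXA1-OE metastases 0.00845, 0.00741, 0.0398 and 0.0219 RPKM, all below every tumor with the knockout. The tumor mean was 4.41-fold that of the metastases in HNF4G-KO mice and 9.25-fold in HNF4G-KO+FOXA1-OE mice. With no minimum on RPKM these log2(RPKM + 1) differences were -0.14 (SE 0.12, limma adjusted p = 0.857) and -0.22 (SE 0.11, limma adjusted p = 0.735), a scale that compresses changes below 1 RPKM. FLRT2-AS1 overlaps its exons antisense.

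TENM4, a teneurin and so a latrophilin ligand, was also higher in HNF4G-KO than in control tumors. It was 0.142, 0.150 and 0.0447 RPKM in control tumors and 0.322, 0.231, 0.280 and 0.360 RPKM in HNF4G-KO tumors, a mean 2.66-fold control with no overlap. The HNF4G-KO+FOXA1-OE tumors had 0.160, 0.228, 0.124, 0.210 and 0.204 RPKM, below every HNF4G-KO tumor, and the FOXA1-OE tumors 0.0976, 0.135 and 0.181 RPKM. The HNF4G-KO+FOXA1-OE metastases had 0.300, 0.291, 0.381 and 0.310 RPKM, above all 5 tumors of that genotype, with a difference of 0.16 (SE 0.07, limma adjusted p = 0.735). The HNF4G-KO metastases had 0.203 and 0.388 RPKM.

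ADGRL2, the third latrophilin, ran the other way in part. It was 0.451, 0.544 and 0.199 RPKM in control tumors and 0.173, 0.171, 0.137 and 0.169 RPKM in HNF4G-KO tumors. The HNF4G-KO+FOXA1-OE tumors had 0.165, 0.162, 0.309, 0.321 and 0.284 RPKM, and the FOXA1-OE tumors 0.294, 0.335 and 0.180 RPKM. HNF4G-KO tumors were thus the lowest group of primary tumors, though HNF4G-KO+FOXA1-OE tumors overlapped with them. FLRT1 ranged from 0.160 to 1.01 RPKM over the 21 libraries, the highest being HNF4G-KO+FOXA1-OE tumor 5. TENM2 was at 0 in 11 libraries and at most 0.0282 RPKM, or 17 reads, so that no comparison was possible at this depth.

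TENM3 ranged from 0.00919 to 0.520 RPKM. Its highest library was HNF4G-KO metastasis 2 (0.520 RPKM), followed by HNF4G-KO+FOXA1-OE metastases 3 (0.282 RPKM) and 4 (0.208 RPKM) and control tumors 2 (0.162 RPKM) and 1 (0.114 RPKM). These 5 libraries were also the 5 with the highest sum of the 9 stromal genes, which was 390, 215, 208, 183 and 192 RPKM in that order. Below them the orders differed. HNF4G-KO+FOXA1-OE tumor 5 ranked 6 for TENM3 (0.113 RPKM) but 19 for the stromal sum (47.0 RPKM). FOXA1-OE tumor 2 ranked 17 for TENM3 (0.0163 RPKM) but 6 for the stromal sum (157 RPKM). The part of host stroma in TENM3 was not tested.

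**Figure D4:**
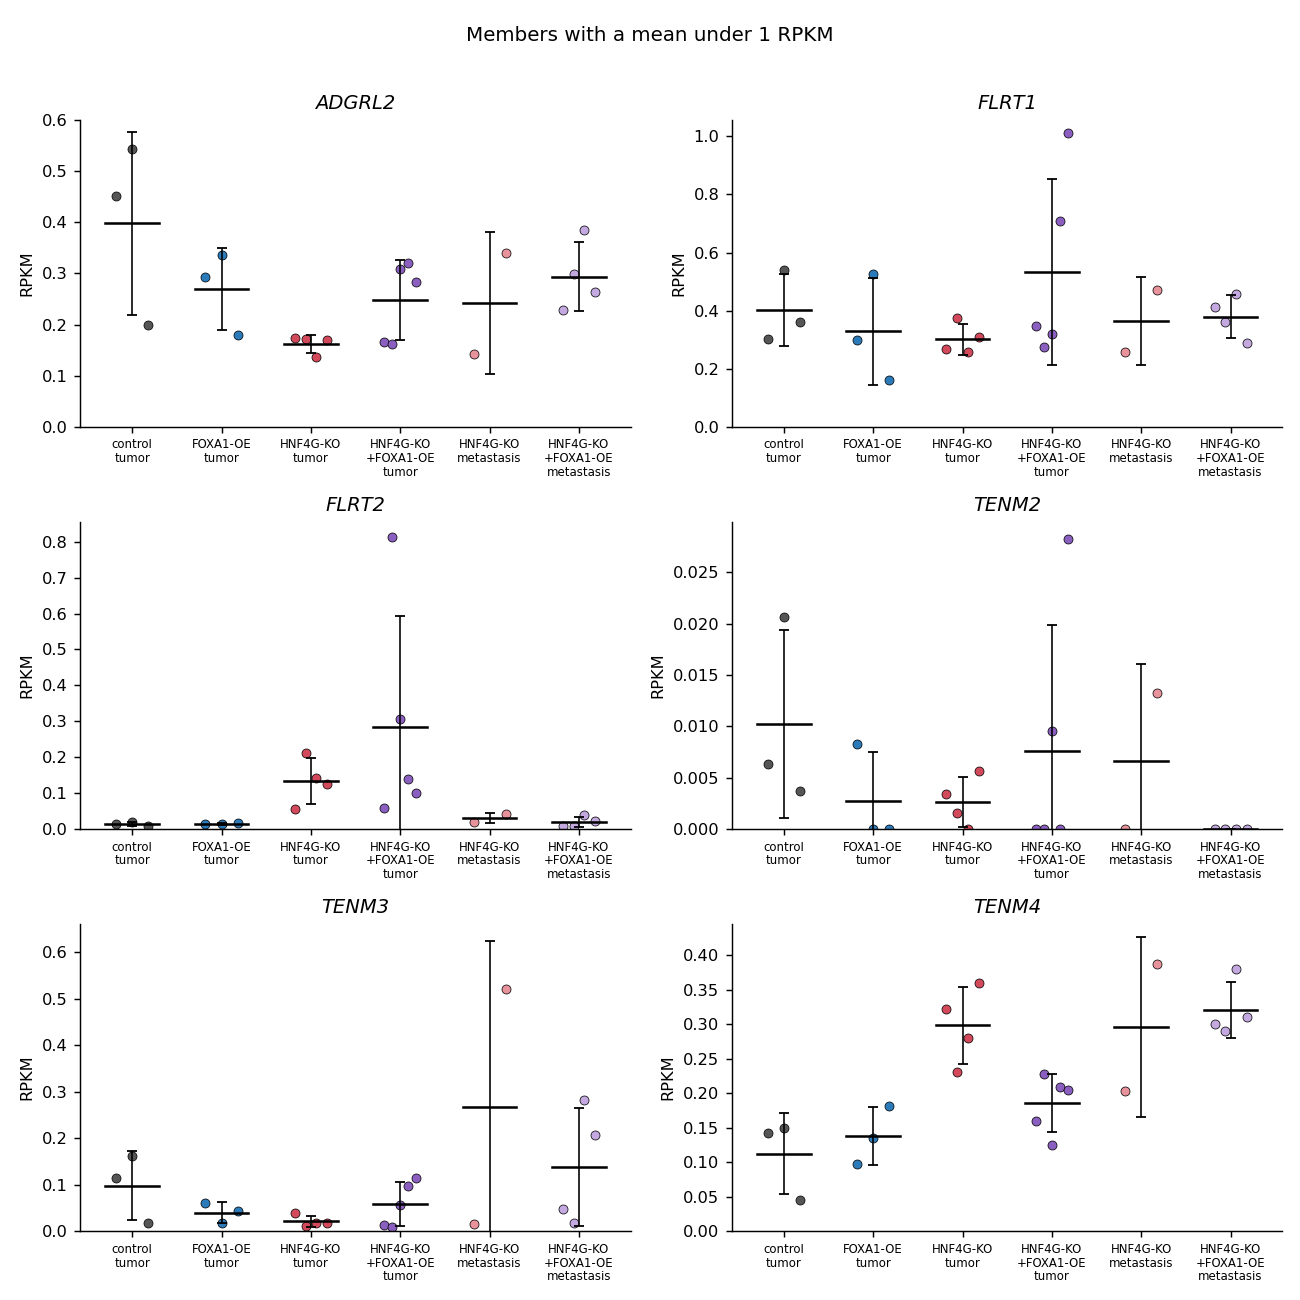
RPKM of ADGRL2, FLRT1, FLRT2, TENM2, TENM3 and TENM4 (vertical axes) in each sample of the 6 groups, with bars for the mean and SD. FLRT2 is above the control range in all 9 tumors with the knockout, and TENM3 is highest in HNF4G-KO metastasis 2 at 0.520 RPKM.

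The wider pathway was read from 6 lists of 115 genes: other members of these families, netrin and guidance partners, FLRT and latrophilin partners, G protein signaling, other adhesion receptors of the same class, and other leucine-rich repeat adhesion proteins. Of these, 41 passed the minimum in primary tumors. The 5 other family members (ADGRL4, TENM1, UNC5A, UNC5C and UNC5D) did not, none exceeding 0.810 RPKM in a library. Between HNF4G-KO and control tumors 6 of 41 were called higher and 1 lower, with a median log2 difference of 0.227 against 0.0148 over all genes, of which 6.18% were called higher and 5.99% lower. By list, 1 of 3 netrin and guidance genes was higher, and of 10 FLRT and latrophilin partners 1 was higher and 1 lower. Of 14 G protein genes 3 were higher, of 8 other adhesion receptors 1 was higher, and of 6 leucine-rich repeat genes none was called.

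PLCB4, a phospholipase C activated by Gq, rose by 1.34 (SE 0.13, limma adjusted p = 0.000224), from 0.517 to 0.767 RPKM in control tumors to 2.88 to 3.40 RPKM in HNF4G-KO tumors. It then fell by 0.75 in HNF4G-KO+FOXA1-OE against HNF4G-KO tumors (SE 0.12, limma adjusted p = 0.0422), where its range was 0.805 to 2.69 RPKM. It was the gene of the lists called in that comparison, of 41, beside 0.0561% of all genes. The fall was called in 4 of 16 alternative settings and not, for example, with a pseudocount of 0.1 (limma adjusted p = 0.132) or a common median (limma adjusted p = 0.106), although the direction was the same in 16 of 16. NTN4, a secreted netrin-family protein, rose by 1.32 (SE 0.40, limma adjusted p = 0.0456), from 14.7 to 18.9 RPKM in control tumors to 39.7 to 48.8 RPKM in HNF4G-KO tumors. GNA13, a G protein alpha subunit, rose by 1.13 (SE 0.27, limma adjusted p = 0.02). FGFR4, a fibroblast growth factor receptor, fell by 0.79 (SE 0.19, limma adjusted p = 0.0214), from 10.3 to 12.3 RPKM in control tumors to 4.89 to 8.21 RPKM in HNF4G-KO tumors. Of these calls between HNF4G-KO and control tumors, that of PLCB4 held in 15 of 15 alternative settings, GNA13 in 10, FGFR4 in 8 and NTN4 in 5. The lists were chosen with earlier results of these data known, and the set of members was selected on the same contrasts. The adjusted p-values of this paragraph are therefore a description and no support for the pattern.

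Between HNF4G-KO+FOXA1-OE and FOXA1-OE tumors 3 of 41 were called higher and 1 lower, beside 7.86% of all genes called, so the lists stood near the background. PLCB4 rose by 0.82 (SE 0.13, limma adjusted p = 0.00242), NTN4 by 1.502 (SE 0.40, limma adjusted p = 0.0347) and ADGRF4, another adhesion receptor, by 1.12 (SE 0.26, limma adjusted p = 0.0191). LRIG1, a leucine-rich repeat protein that lowers ErbB receptor levels, fell by 1.47 (SE 0.32, limma adjusted p = 0.0138). It was 9.40 to 18.4 RPKM in FOXA1-OE tumors and 2.55 to 8.04 RPKM in HNF4G-KO+FOXA1-OE tumors, whereas control and HNF4G-KO tumors overlapped. In that comparison the calls held in 14 of 15 alternative settings for PLCB4, 13 for LRIG1, 12 for ADGRF4 and 10 for NTN4. Against control, HNF4G-KO+FOXA1-OE tumors had PLCB4 higher by 0.59 (limma adjusted p = 0.0191) and ADGRA3, an adhesion receptor, lower by -0.80, 1 of 41 in each direction, beside 2.14% of all genes called higher and 2.55% lower. The calls held in 10 and 7 of 15 alternative settings. In the limma fits no gene of the lists was called for FOXA1-OE against control, for the difference between the FOXA1 effects, or in the 3 comparisons with metastases, where 40 genes were tested. Comparisons that share control or FOXA1-OE tumors are not independent of each other.

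**Figure D5:**
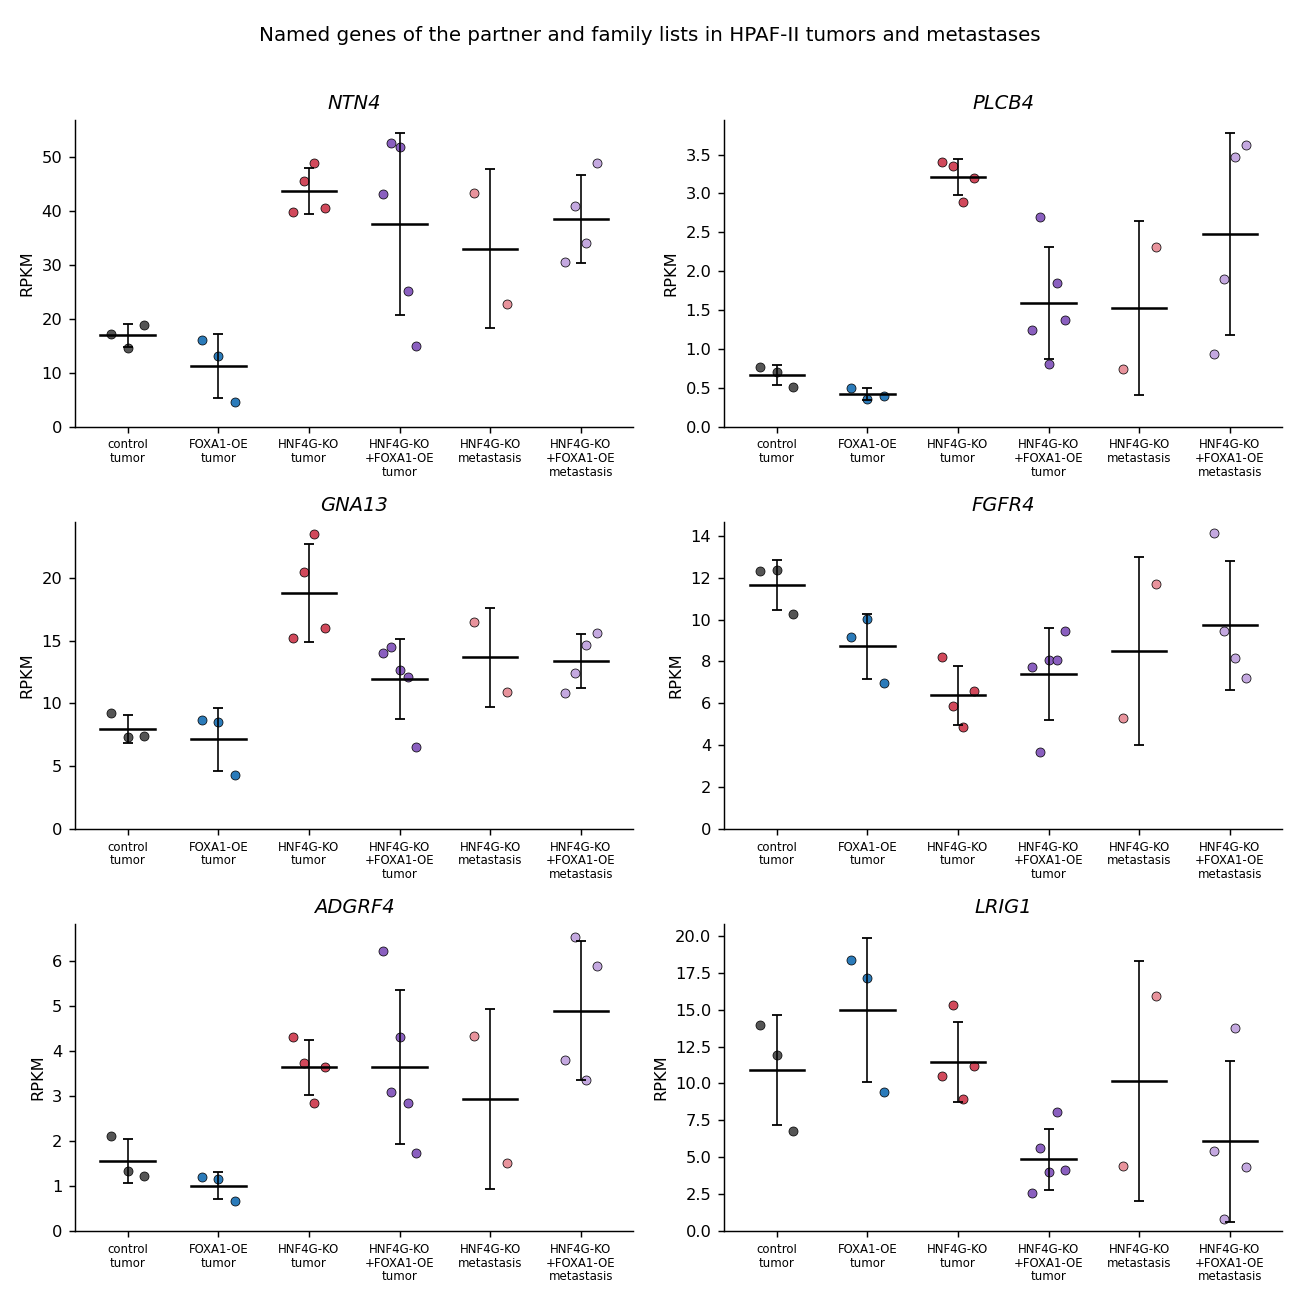
RPKM of NTN4, PLCB4, GNA13, FGFR4, ADGRF4 and LRIG1 (vertical axes) in each sample of the 6 groups, with bars for the mean and SD. PLCB4 sits at 2.88 to 3.40 RPKM in HNF4G-KO tumors, above every other primary tumor, and LRIG1 is lower in HNF4G-KO+FOXA1-OE than in FOXA1-OE tumors.

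The genes whose levels tracked ADGRL3 most closely were sought over 19 samples, averaged within mice, and 14229 genes, as a description with no p. The points share their groups, so that any gene that differs between groups will correlate. IRAK3, a kinase-like brake on Toll-like receptor signaling, had the highest Pearson r with ADGRL3, 0.947, followed by ZNF487 (0.872), BST1 (0.865), LRRIQ1 (0.861) and CFAP70 (0.859). IRAK3 was 0.671 to 1.28 RPKM in control, 2.25 to 3.67 RPKM in HNF4G-KO and 0.389 to 1.25 RPKM in HNF4G-KO+FOXA1-OE tumors. It was also high in HNF4G-KO+FOXA1-OE metastasis 3, at 3.38 RPKM, against 0.523, 0.313 and 0.451 RPKM in metastases 1, 2 and 4. FLRT3 was most like UBL3 (0.903), TMEM181 (0.903), ELMOD2 (0.9), NAB1 (0.897) and CAMK2D (0.897). ADGRL3 and FLRT3 had an r of 0.698 with each other, UNC5B had 0.298 with ADGRL3 and 0.388 with FLRT3, and ADGRL1 had 0.162 and 0.0324.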

How the data were processed

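RNA was sequenced with a stranded mRNA kit from 21 HPAF-II tumors and metastases of 15 mice. The deposited values were RPKM per gene, made by the authors from gene counts. The submitters' notes name STAR 2.6.1a, featureCounts 2.0.4 and DESeq2 and the GRCh38 build, whereas the methods of the study name GRCh37. Removal of mouse reads and the strand setting of the counting were not given in the sources used here. Of 58719 identifiers, 58205 matched a symbol. The RPKM steps gave back whole reads for 15795 of 15795 genes tried, at least 99.7% of low values being whole. Coordinates were read from GENCODE and RefSeq on GRCh38, not from the deposited table.

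Groups were taken from the labels, and replicates are tumors of separate mice except where stated. The members and gene lists were chosen with earlier results of these data known. Samples of 1 kind from 1 mouse were averaged. limma 3.58.1 in R 4.3.3 (empirical Bayes with trend) was fitted to log2(RPKM + 1) over genes averaging 1 RPKM or more, 14269 in primary tumors and 14099 in knockout tumors and metastases, with Benjamini-Hochberg adjustment over all genes and a threshold of 0.05. The scripts were tested on simulated data. Tables and figures used Python 3.11.15, pandas 2.3.3, numpy 2.4.6, scipy 1.17.1 and matplotlib 3.10.9. All 10 members are named, with at most 3 called genes of the lists in each direction per comparison and the 5 genes most correlated with ADGRL3 and with FLRT3. Named alternatives were a pseudocount of 0.1, no minimum, a shift to a common median, only the groups compared, samples of a mouse kept separate, a stromal covariate, replicate blocks and leaving out each sample. A limma-voom fit on the recovered reads was added after seeing the data. For tumor and metastasis of the same mouse, deviations from the group means had correlations of 0.248, 0.303, 0.271 and -0.0264. Columns of the mouse cell line table were not used here.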

Additional observations from a re-analysis of the deposited data

Results flagged for a closer look

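ADGRL3 in HNF4G-KO+FOXA1-OE metastasis 3 was 3.85 RPKM, far from 0.495, 0.737 and 0.655 RPKM in the other metastases of the group. Its gap to the nearest of them was 0.873 of the whole range of the group. ADGRL2 in HNF4G-KO tumor 3 was 0.137 RPKM, below 0.173, 0.171 and 0.169 RPKM in the other tumors of the group, with a gap of 0.884 of the range. In all, 30 combinations of member and group were examined for a sample that stood apart, of which chance gives about 1 in 20. The effect of FOXA1 on ADGRL3 differed between tumors with and without the knockout, by -1.58 on the log2 scale. The same tumors led to the choice of ADGRL3, so this is a description and no test.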

How the results depend on the processing

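The members were chosen on the primary tumors with the knockout, so the counts for them are no support for the pattern, whichever alternative gives them. For HNF4G-KO against control tumors the count of members called was 4, and it was 3 to 4 in 15 alternatives. ADGRL1 was called in 4 of these 15, and ADGRL3, FLRT3 and UNC5B in all 15. For HNF4G-KO+FOXA1-OE against HNF4G-KO tumors the count of members called was 2, and it was 0 with a pseudocount of 0.1, with a common median and with only the groups compared, 1 without the minimum on RPKM and with samples of a mouse kept separate, and 0 to 2 with a sample left out. It was 0 without HNF4G-KO+FOXA1-OE tumor 1, without tumors 2 and 3, and without each of the 4 HNF4G-KO tumors, and 1 without HNF4G-KO+FOXA1-OE tumor 5. Against control it was 2, and 0 without the minimum and with only the groups compared, and 0 to 2 with a sample left out (0 without HNF4G-KO+FOXA1-OE tumor 1, control tumor 2 or control tumor 3, and 1 without control tumor 1). Against FOXA1-OE it was 1, and 0 with only the groups compared and 1 to 2 with a sample left out (2 without HNF4G-KO+FOXA1-OE tumors 2 and 3, when ADGRL1 was called as well). For the difference of the FOXA1 effects it was 1, and 0 with the pseudocount of 0.1, without the minimum, with a common median and with samples separate, and 0 to 1 with a sample left out (0 without HNF4G-KO+FOXA1-OE tumors 2 and 3, each HNF4G-KO tumor, each control tumor, or FOXA1-OE tumor 1 or 2). The counts of 0 for FOXA1-OE against control and for the 3 comparisons with metastases were 0 in every alternative run. Over all genes, calls ran from 284 to 5595 for HNF4G-KO against control (1736 in the fit reported), from 0 to 62 for HNF4G-KO+FOXA1-OE against HNF4G-KO tumors (8), from 25 to 807 against control (670), from 86 to 1465 against FOXA1-OE (1122) and from 0 to 3 for FOXA1-OE against control (0). They ran from 0 to 7 for the difference of the FOXA1 effects (5), from 0 to 353 for HNF4G-KO metastases against tumors (6), from 0 to 57 for those with FOXA1-OE (1) and from 0 to 78 between the metastases (0). The cause of these changes was not tested.

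With the replicate block on tumor number, the count for HNF4G-KO+FOXA1-OE was 0 against HNF4G-KO tumors, 0 against control and 0 for the difference of the FOXA1 effects. Tumors share only a number, with correlations from -0.274 to 0.631. With that block the log2 difference of ADGRL1 against HNF4G-KO tumors was -0.047, and against control that of ADGRL3 was -0.054 and that of FLRT3 was 0.063. With the replicate block on the mouse, which pairs tumors and metastases, ADGRL3 in HNF4G-KO+FOXA1-OE metastases against tumors turned to -0.24, and no call changed. No mouse block could be fitted between the groups of metastases, since mice lie within genotypes. The alternative with only the groups compared was not run for the difference of the FOXA1 effects, which needs all 4 groups.

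ADGRL3 in HNF4G-KO+FOXA1-OE against control tumors also changed sign, to -0.038 with a pseudocount of 0.1 and -0.0053 in limma-voom. With the stromal covariate, UNC5B in FOXA1-OE against control tumors turned to 0.24 and ADGRL3 in HNF4G-KO+FOXA1-OE metastases against tumors to -0.17. With a sample left out, HNF4G-KO+FOXA1-OE against control ran from -0.089 to 0.16 for ADGRL3 and from -0.14 to 0.029 for FLRT3, and against HNF4G-KO tumors from -0.030 to 0.34 for ADGRL1. FOXA1-OE against control ran from -0.37 to 0.30 for UNC5B, and the difference of the FOXA1 effects from -0.34 to 0.031 for ADGRL1. Metastases against tumors ran from -0.61 to 0.00157 for ADGRL1 in HNF4G-KO mice, and from -0.31 to 0.48 for ADGRL3 and -0.037 to 0.48 for FLRT3 in HNF4G-KO+FOXA1-OE mice. Between the groups of metastases the range was -0.44 to 0.073 for FLRT3 and -0.088 to 0.52 for ADGRL1. With 2 HNF4G-KO metastases, their number limits what can be detected.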
